A study of Mus musculus with 18 samples.

Results

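Weakly transcribed putative enhancers were examined in murine embryonic stem (ES) cells profiled by TT-seq, which sequences RNA labelled during a short pulse of 4-thiouridine and so reads ongoing transcription. The members were chosen by their baseMean, the authors' mean over all libraries of read counts divided by size factors, and had a baseMean from 1 to below 10. Of the 15438 putative enhancers in the deposited table, 4868 (31.5%) fell in this range. Putative enhancers were defined by the authors as TSS-distal DNaseI hypersensitive sites (DHSs) that carry H3K27ac or H3K4me1. They were compared with 17954 of 70586 TSS-distal DHSs in the same range, which the authors defined by accessibility alone. By these definitions the DHSs include sites with the marks, so the classes overlap and are not separate sets. Shared sites could not be traced or removed, as no region coordinates were used.

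Enhancers are gene-distal elements that transcription factors bind to raise transcription of genes on the same chromosome. Active enhancers are themselves transcribed by RNA polymerase II into enhancer RNAs (eRNAs), which are usually short, unstable and present at low levels, so that nascent RNA shows them better than steady-state RNA does. H3K4me1 is found at both primed and active enhancers, while H3K27ac marks active ones. FACT, a histone chaperone of SPT16 and SSRP1, takes nucleosomes apart ahead of the polymerase and rebuilds them behind it, and in ES cells it has been tied to the maintenance of pluripotency.

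The 18 libraries comprised 6 conditions with 3 libraries each. Untagged E14 cells, SPT16_AID_V5 clone 1 and SPT16_AID_V5 clone 2 were each treated for 24 h with 0.1% ethanol or with the auxin 3-IAA, and RNA was labelled for 5 min. All cells carried osTIR1 at the Rosa26 locus, the plant factor that lets auxin trigger degradation, and were grown without feeders in serum, LIF and inhibitors of GSK3 and MEK. Only in the clones, both homozygous, did SPT16 carry the degron with a V5 tag at its C terminus. The labels give the 3-IAA dose as 500 nM, while the study's methods give the same figure in µM. By the study's terms the clones are its biological replicates, and the 3 libraries of a condition are technical ones. Each level below pools libraries with and without SPT16 in 1 mean made by the authors, so it carries no error between libraries and does not show whether a region was transcribed more in one condition than in another. The authors' own fold changes and p-values were not used here, and therefore no difference between conditions is given.

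The labelled cell type was checked in the deposited gene table. All 10 ES cell markers were high, with a baseMean from 5985 for Sox2 to 72140 for Tfcp2l1, and Pou5f1, which encodes OCT4, stood at 7585. By contrast, the 25 markers of primitive endoderm, trophectoderm, neural cells, mesoderm and fibroblast feeder cells lay between 0 for Neurod1 and 1097 for Nes. The median over all protein-coding genes was 273. Nes, Tfap2c at 1074 and Gata4 at 455 lay above that median, and the others lay below it. As these means pool all conditions, they do not show the state of the SPT16-depleted cells alone. The highest of the 5 fibroblast markers was Thy1 at 25.7. These counts are not scaled to gene length.

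The range held 31.5% of all putative enhancers and 25.4% of all DHSs. Of 14889 putative enhancers with reads, 32.7% lay in the range, against 31.0% of 57954 DHSs with reads. Which class had the larger share of regions with reads depended on the limits, since with a lower limit of 0.5 it was 40.1% for putative enhancers and 42.7% for DHSs, and with an upper limit of 5 it was 22.0% and 23.4%. The classes differed more on either side of the range. Of regions with reads, 23.3% of the putative enhancers and 53.7% of the DHSs lay below the range, and 44.0% and 15.3% had a baseMean of 10 or more. Accordingly, the range was the lower middle of the enhancer levels, whose median over all regions was 6.05, and the upper part of the DHS levels, whose median was 0.422. PROMPTs, which are transcribed upstream of and antisense to promoters, resembled DHSs in this respect, with 30.8% of those with reads in the range and 16.0% above it. Of protein-coding genes with reads, 11.1% were in the range and 76.6% above it.

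**Figure D1:**
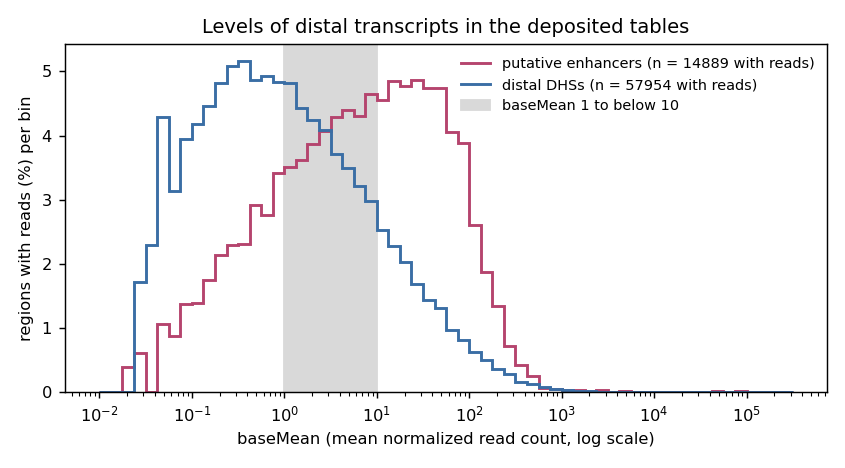
Distribution of baseMean on a log scale for putative enhancers and distal DHSs with reads, in percent of regions per bin, with the range from 1 to below 10 shaded. Within the shading the enhancer curve rises while the DHS curve falls, and the classes hold 32.7% and 31.0% of their regions there.

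Inside the range, putative enhancers were spread almost evenly over the levels on a log scale, with somewhat more regions toward the upper limit. The number of regions was 1300 at a baseMean from 1 to below 2, 1461 from 2 to below 4, and 1576 from 4 to below 8. The same doublings held 6391, 5554 and 4709 DHSs, so that there the numbers went down as the level went up. The median level of the range was 3.46 for putative enhancers, with quartiles at 1.93 and 5.94, and 2.71 for DHSs, with quartiles at 1.61 and 4.94. The lowest doubling held 26.7% of the enhancer members and 35.6% of the DHS members. PROMPTs in the range had a median of 2.92 and protein-coding genes one of 3.35. No test was made of these differences, since the level itself chose the members and regions are not replicates.

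Each table was normalized by the authors with its own size factors. Where the whole data set held a single read for a region, its baseMean was set by the depth of the library with that read, and exactly 18 such values were found in each of the 4 tables, as many as there are libraries. Size factors are centred near 1 within a table by the way they are computed, and with reads spread by depth a baseMean of 1 stood for 20.4 reads over all libraries in the enhancer table and 19.7 in the DHS table. The lengths of the regions were not used here, and a baseMean is not scaled to length, so a lower level per region can reflect a shorter region.

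**Figure D2:**
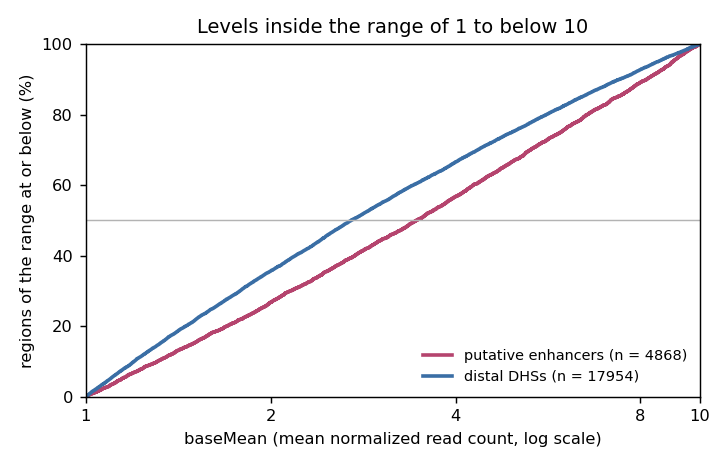
Cumulative percent of regions at or below each baseMean within the range, on a log axis, for putative enhancers and distal DHSs. The enhancer line is nearly straight and crosses 50% at 3.46, while the DHS line lies above it and crosses 50% at 2.71.

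The members were followed by region number, as the deposited table gives neither coordinates nor nearest genes. ENH4993 was the lowest member, with a baseMean of 1.000012, followed by ENH6503 at 1.000720 and ENH446 at 1.000895. ENH4578 at 0.999918 and ENH11010 at 0.999641 lay just below the limit. At the upper end, ENH7823 had a baseMean of 9.989160, ENH2821 of 9.987753 and ENH4170 of 9.980196, while ENH3382 at 10.000540 and ENH6638 at 10.002580 lay just outside. ENH4087 stood at the median with 3.46. In terms of level, regions thus ran across both limits without a gap, with 204 putative enhancers from 0.9 to below 1, 163 from 1 to below 1.1, 253 from 9 to below 10 and 218 from 10 to below 11.

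How few reads stand behind a member can be read from the values of 1 read. For putative enhancers 1 read in 1 library added between 0.0229 and 0.106 to the baseMean, so the highest size factor was 4.62 times the lowest. Depth here means this size factor, which differs between tables. The same ratio was 3.78 for DHSs, 4.84 for PROMPTs and 5.34 for protein-coding genes. A region with 1 read in each of the 18 libraries would have a baseMean of 1.06, just inside the range. If reads were spread over the libraries by depth, a baseMean of 1 stood for 20.4 reads in all and one of 10 for 204 reads. Depending on which libraries held them, the lower limit could be met with as few as 9.44 or as many as 43.6 reads, and the upper with 94.4 to 436. At the median of 3.46, a weakly transcribed putative enhancer was therefore measured with a few reads per library.

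**Figure D3:**
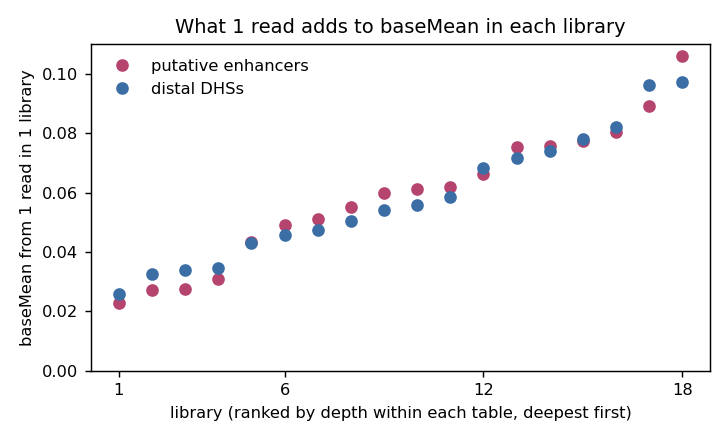
The baseMean that 1 read in 1 library gives, for the 18 libraries ranked by depth within each table, deepest first. The values run from 0.0229 to 0.106 in the enhancer table and from 0.0257 to 0.0972 in the DHS table, and a rank need not be the same library in both.

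The counting error of a level followed from the same values, with reads taken as independent and spread by depth. It was 0.243 at a baseMean of 1, or 24.3% of the level, 17.2% at 2, 10.9% at 5 and 7.67% at 10. It covers counting alone, and differences between libraries or conditions come on top. Of the 4868 members, 3596 (73.9%) lay inside the range by more than 2 such errors at both limits, while 891 were within 2 errors of the lower limit and 381 of the upper one. Outside the range, 791 weaker and 358 stronger putative enhancers lay within 2 errors of the nearer limit. Neighbouring members in the order of levels, such as ENH4993 and ENH446, did not differ beyond this error. For DHSs in the range, 70.1% lay inside by more than 2 errors. With bulk RNA, low transcription in every cell and higher transcription in a few cells cannot be told apart.

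The baseMean values of the members summed to 19997 normalized reads of 1114670 in the table, or 1.79%. The rule itself kept this share low, as 4868 regions within these limits could hold between 0.437% and 4.37%. The 5 regions with the highest levels held 45.0%, and without them the members' share was 3.26%. The single highest region had a baseMean of 205204, which was 10.3 times the sum over all weakly transcribed members. In the DHS table the range held 63498 of 699046 normalized reads, or 9.08%, and the 5 highest regions held 4.59%. There were 10 putative enhancers with a baseMean above that of the highest DHS, 10753, and their table summed to more reads although it lists fewer regions. The rows of the enhancer table therefore cannot all be rows of the DHS table counted over the same windows.

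Levels changed in steps along the region numbers, whose order is not explained in the sources used here. Limits at which the rank of the level changed most were sought, with the number of blocks set at 3 and not found from the data. In numbers 1 to 10171 the median over all putative enhancers was 8.78, in 10172 to 14252 it was 1.99, and in 14253 to 15438 it was 6.67. The share of weakly transcribed members hardly moved with these steps, at 31.6%, 30.5% and 35.0%. What moved was the balance on either side of the range, since regions below a baseMean of 1 made up 20.6%, 40.9% and 21.9% of the blocks and those of 10 or more made up 47.9%, 28.7% and 43.1%. Regions without reads made up 2.44%, 7.01% and 1.26%.

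Within the range, members of the middle block had the lowest median level. Their median was 2.995, against 3.64 in the first and 3.54 in the last block, and 30.3% of them lay below a baseMean of 2, against 25.5% in each of the other blocks. The first block held 65.9% of all members, the middle block 25.5% and the last 8.53%. Of the 10 putative enhancers with the highest levels in the table, 8 were in the last block and 2 in the first. The block limits were drawn from the levels of all regions, members included. The steps between blocks, also those inside the range, are therefore a description with no test. What sets the blocks apart is not given in the sources used here. Within a block, the levels of consecutive numbers were hardly related (Spearman's rho -0.00239, 0.00246 and 0.0294 across regions). Over the whole table, rho was 0.0528 for putative enhancers (15437 pairs) and 0.681 for DHSs (59077 pairs). Enhancer numbers run to 15438 without gaps, while the 70586 DHSs have numbers up to 199717. Consecutive numbers therefore need not mean the same in both. Regions share libraries, so these correlations describe the tables and have no test.

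**Figure D4:**
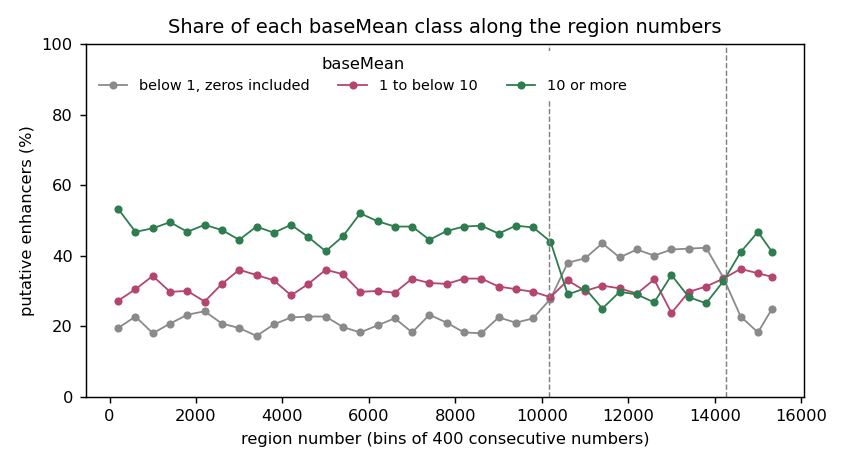
Percent of putative enhancers with a baseMean below 1 (zeros included), from 1 to below 10, and of 10 or more, in 39 bins along the region number, with dashed lines at 10171 and 14252. The share in the range stays between 23.8% and 36.2%, while the shares below 1 and of 10 or more change place between the lines.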

How the data were processed

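Reads were trimmed with Trim Galore, aligned to mm10 with STAR keeping unique alignments, and counted by strand with featureCounts per the study's methods (the submitters' processing notes list HTSeq). For each of 4 classes of transcript the authors deposited 1 table made with DESeq2. The baseMean column is a signal that the authors computed by dividing counts by the size factors of that table and averaging over libraries, kept to about 7 significant digits. The other 4 value columns hold the authors' comparison of SPT16-depleted with control libraries (log2 fold change, its standard error, p-value and adjusted p-value) and were not used. Neither counts per library nor region coordinates were used, so no sequences are shown and no model was fitted.

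The members and lists were chosen with earlier results of these data known. Regions named were the 3 lowest and 3 highest members, the median member, and the 2 on the outer side of each limit. A further part of the rule, on how evenly reads spread over libraries, could not be applied, as reads per library were not recovered for members. Values of 1 read were those below a baseMean of 0.14 that no sum of smaller such values matched within rounding. All 1251 putative enhancers with reads and a baseMean below 0.2 matched whole reads. Below 0.14 this match follows from how the values of 1 read were chosen. Only regions from 0.14 to below 0.2 could have failed to match. The search was tested on simulated data, where it found every library and no other value in 20 of 20 simulations of the enhancer table. The simulated size factors were those found by the same search with small random changes. The simulations therefore cover only libraries spaced much like these, and the other tables were not simulated. The counting error at a baseMean b was the square root of b times the mean value of 1 read. Number blocks, set at 3 and of at least 100 regions, were those with the least variance of rank and were sought after the data were seen. No p-values were computed. Calculations ran in Python 3.11.15 (pandas 2.3.3, numpy 2.4.6, scipy 1.17.1), and figures were drawn with matplotlib 3.10.9.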

Additional observations from a re-analysis of the deposited data

How the results depend on the processing

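Of 43 recomputed values, 14 stayed within 1.5 times the count or within the interval of the value, and 29 moved. With a lower limit of 0.5, the range held 38.7% of putative enhancers with a median of 2.65 and 35.1% of DHSs with a median of 1.82. With a lower limit of 2, these were 23.1% and 4.62 for putative enhancers, and 16.4% and 4.12 for 11563 DHSs. With an upper limit of 5 they were 21.2% and 2.37, and 19.2% and 2.09. With an upper limit of 20 they were 42.4% and 5.01, and 30.1% and 3.34. Under each of these limits the median and the share of all regions were higher for putative enhancers. Of regions with reads, the enhancer share was 32.7% in the range as reported, and with the changed limits, an alternative chosen after seeing the data, the shares for putative enhancers and DHSs were 40.1% and 42.7% (lower limit 0.5), 24.0% and 19.95% (lower limit 2), 22.0% and 23.4% (upper limit 5), and 44.0% and 36.7% (upper limit 20), so that their order turned at 0.5 and 5. Without the 5 highest regions, the range held 3.26% of the summed baseMean. Rescaling the DHS table by the geometric mean of the values of 1 read (ratio 0.994) gave 17929 DHSs, but size factors are centred near 1 in every table, so this says nothing on scale. Rescaling by the reads behind a baseMean of 1 (ratio 0.968, added after seeing the data) gave 17790 DHSs, 25.2% of all, with a median of 2.71. Of the other alternatives added after seeing the data, DHSs with no numbered neighbour at or above 1 had a median of 1.94, and over bins of 400 numbers the enhancer share in the range spanned 12.5 percentage points, against 4.53 over the 3 blocks. All 1251 putative enhancers with reads and a baseMean below 0.2 matched whole reads within the rounding of 7 significant digits and within 10 times that, by exactly 1 combination of libraries for 1246 and 1231 of them. Recovering reads per library for members was not run, since the digits kept do not fix the reads of a library at these levels. No paired analysis was possible because the deposited tables hold no values per library, and for the same reason no library could be left out. Depth limits the levels near 1, where counting error is 24.3% of the level.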

Other observations

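Regions with a single read in the whole data set lie far below the range, and their number differed between libraries in all 4 tables. The libraries are known here only by their value of 1 read and were put in no group. Among DHSs, 6491 regions had 1 read in all, with 157 to 993 of them per library. Divided by the size factor of the library, the numbers were 234, 234, 251, 253, 261, 267, 269, 273, 275, 282, 293, 323, 336, 397, 432, 460, 488 and 502. Among putative enhancers, 426 regions had 1 read in all, with 6 to 59 per library, and the numbers divided by the size factor ran from 8.67 to 36.8 with a median of 19.6. For putative enhancers these numbers rest on few regions per library. The highest number was 4.24 times the lowest for putative enhancers, 2.15 times for DHSs, 5.09 times for PROMPTs (58.3 to 297) and 2.77 times for protein-coding genes (16.1 to 44.7), so the spread was not particular to distal regions. A library could not be followed from one table to the other, and no link of these values to a condition was tested.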
